A study of Mus musculus with 175 samples.

Results

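The carbonic anhydrase genes Car1, Car2 and Car13 and the water channel gene Aqp1 were examined in single progenitors of the mouse fetal liver. These 4 genes, of 49585 mouse features in the deposited counts, were taken by their symbols, which were chosen on measured values: Car1 differed in opposite directions in megakaryocyte-erythroid progenitors (MEPs) and common myeloid progenitors (CMPs), and the other 3 genes were put beside it. The values below are therefore descriptions, and none was tested.

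Carbonic anhydrases interconvert carbon dioxide and bicarbonate. Car1 and Car2 encode the main cytosolic forms of the red cell, Car2 has much the faster catalysis, and Car13 is a further cytosolic member of the family. Aqp1 encodes a water channel of the red cell membrane that carries the Colton blood group in humans. Car1, Car2 and Aqp1 are known as genes of the erythroid lineage, although none is restricted to it, and Car2 is also found in many other tissues.

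The cells were sorted from E14.5 fetal livers of embryos with the genotype label Runx1 P2-GFP::P2-hCD4/+, on C57BL/6 crossed with ICR. The extract protocol in the labels gives the green reporter as P1-GFP instead. The human CD4 (hCD4) reporter marks cells in which the P2 promoter of Runx1 is active, and all 4 populations carry the reporters over a wild type allele. MEPs were lineage-negative, SCA1-negative, C-KIT-positive (LK) cells with low CD16/32 and no CD34, CMPs were the same with CD34, and both were taken as CD41- CD150+ cells. P2- and P2+ refer to absence and presence of hCD4, and the labels CMP_low and CMP_high were read as P2- and P2+ CMPs. Livers of 2 litters were pooled, so each population is 1 sample without a replicate, and its cells are not replicates of a condition.

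Each cell was a library of its own, made by a modified Smart-Seq2 protocol in a 384-well plate without molecular identifiers. After the filters of the study 56 of 57 P2- and 47 of 48 P2+ MEPs remained, as did 27 of 27 P2- and 42 of 43 P2+ CMPs. They held between 295064 and 1540631 reads on mouse genes per cell, and P2+ CMPs were the deepest, with a median of 804632.5 reads, against 520540.5 in P2- MEPs. In 6 of the 172 cells (2 in each population except P2+ CMPs) reads of Xist and of Y chromosome genes occurred together. A P2- CMP carried a conflicting label, since its subtype was given as MEP. The erythroid marker list used here was lower in P2+ cells of both compartments, its summed level per cell having medians of 2017 (P2-) and 807 (P2+) in MEPs and of 491 (P2-) and 203 (P2+) in CMPs, in counts per 1000000 reads (CPM). The macrophage list was at or near 0 in all 4 populations, with a median of 0 and a highest cell of 69.0 CPM.

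Levels are pooled CPM, that is the reads of a gene in all cells of a population per 1000000 reads on mouse genes in these cells. Intervals are at 95% and cover counting error alone, as reads copied by PCR do not stand for separate molecules. Per kilobase of exon, which allows levels of different genes to be set side by side, Car2 had 217.5 CPM in P2- MEPs, Car1 had 88.6, Aqp1 had 19.7 and Car13 had 2.79. In P2+ MEPs Car1 was the highest of the 4 genes in pooled reads on this scale, with 240 CPM per kilobase against 129 for Car2, 9.32 for Aqp1 and 2.74 for Car13. In P2- CMPs the values were 134 for Car2, 44.5 for Car1, 2.56 for Car13 and 0.457 for Aqp1. In P2+ CMPs they were 103.2 for Car2, 2.52 for Car13, 2.53 for Aqp1 and 0 for Car1. By these pooled levels Car2 was above the other 3 genes in all populations except P2+ MEPs. The median P2+ MEP had 129.99 CPM per kilobase of Car2 and 55.2 of Car1, so that by the median cell Car2 was the higher there too.

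**Figure D1:**
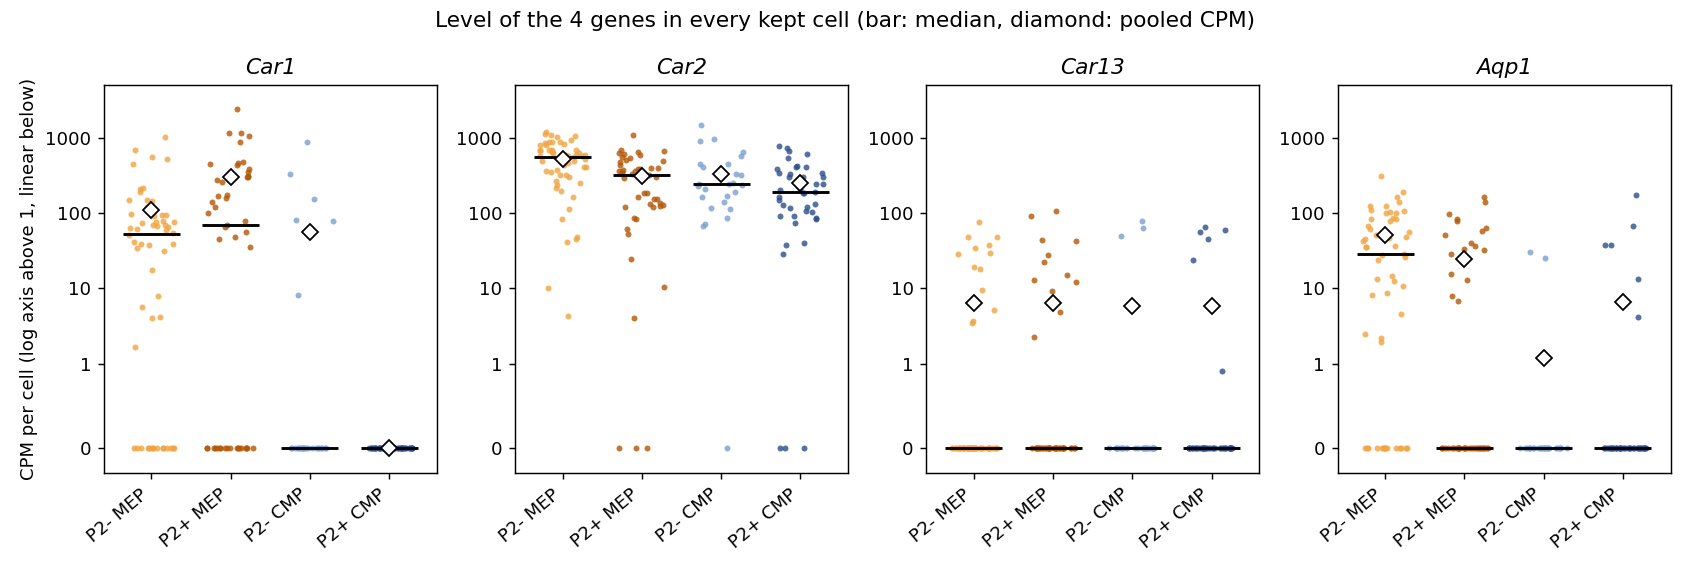
CPM per cell of each gene (vertical axis, logarithmic above 1 and linear below) in the 4 sorted populations (horizontal axis), with 1 point per cell, bars for the median over cells and diamonds for pooled CPM. Car1 has points above 0 in MEPs and in 6 P2- CMPs and none in P2+ CMPs, while Car2 is above 0 in nearly all cells.

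Car1 was high in P2+ MEPs, lower in P2- MEPs, lower again in P2- CMPs and without a read in P2+ CMPs. The gene (ENSMUSG00000027556.15) lies on the minus strand of GRCm38 at chr3:14766216-14808368. Among the 56 P2- MEPs the lowest cell had 0 CPM, the median 52.5 and the highest 1008. Among the 47 P2+ MEPs the lowest had 0 CPM, the median 68.9 and the highest 2372. The MEP populations overlapped, and 4 of the 47 P2+ cells lay above the highest P2- cell. Of all pairs of a P2+ with a P2- MEP, the P2+ cell had more Car1 in 55.8%, with ties split evenly. The upper quartile was 94.9 CPM for P2- and 303.4 CPM for P2+ cells.

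Pooled Car1 was 111 CPM in P2- MEPs, with an interval of 107 to 114. In P2+ MEPs it was 299.7 CPM, with an interval of 293.7 to 305.8. The log2 ratio was thus 1.44 (1.38 to 1.495). In MEPs 7.52% of the 8739 genes past the filter on low values were at least 2-fold higher in P2+ cells. The share of cells with a Car1 read, after thinning each cell to 100000 reads, was 67.9% (54.0 to 79.7%) of P2- MEPs and 61.7% (46.4 to 75.5%) of P2+ MEPs. It was thus the level within cells with reads, and not their share, that was higher: among cells with a read the P2- median was 68.9 CPM and the P2+ median 275.9 CPM. At limits chosen after the values were seen, 12 P2- and 22 P2+ MEPs had at least 100 CPM, and 4 P2- and 5 P2+ MEPs at least 500 CPM.

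A single cell, the highest, held 2928 of the 9462 Car1 reads of P2+ MEPs, or 30.9%, and the 5 cells with most reads held 61.3%. In P2- MEPs the top cell held 16.6% of the 3386 reads. Without the top cell of each population the levels were 94.0 CPM in P2- and 215.4 CPM in P2+ MEPs, with a log2 ratio of 1.197. Leaving out any 1 cell gave ratios between 0.96 and 1.67, so that the direction did not depend on a single cell. In the top P2+ MEP Klf1, a transcription factor gene of the erythroid lineage, was at 315.96 CPM, and the platelet glycoprotein gene Gp9 was at 80.2 CPM.

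In CMPs the lowest and the median P2- cell had 0 CPM of Car1 and the highest had 872. All 42 P2+ CMPs had 0 reads, which allows a share of cells with a read of up to 7.14% by a limit of 3 cells and up to 8.41% by the Clopper-Pearson interval. Only 6 of the 27 P2- CMPs had a read, 22.2% (8.62 to 42.3%) after thinning as well as before. Their levels were 8.24, 79.4, 79.8, 153, 333.8 and 872 CPM, and each lay above every P2+ CMP. Pooled Car1 was 55.6 CPM (52.2 to 59.1) in P2- CMPs, from 1019 reads. In P2+ CMPs no read was found among 36351033. A limit of 3 reads over the population stands for 0.0825 CPM, and the Poisson interval reaches 0.101 CPM. With P2+ CMPs set to 3 reads, Car1 was 673-fold lower in P2+ than in P2- CMPs, a log2 ratio of -9.40. This value depends on the limit chosen. In CMPs 4.49% of the 8739 genes were at least 2-fold lower in P2+ cells.

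The CMP value rested on few cells. The cell at 872 CPM held 520 of the 1019 reads (51.0%), and it was also a well with Xist reads (140) and 1 Y chromosome read. Without it the P2- level was 28.1 CPM and the bound of the log2 ratio -8.41. The other 5 cells with Car1 had reads of Xist or of the Y genes but not of both. All 6 cells with Car1 were among the 14 P2- CMPs with Klf1 reads (thinned), and none was among the 13 without. In P2+ MEPs 25 of 39 cells with Klf1 reads and 4 of 8 without had Car1, at 296.1 and 320.3 CPM. Each level rested in part on its top Car1 cell, and without that cell they were 197 and 187.8 CPM. The Spearman rho of Car1 with Klf1 over the 47 P2+ MEPs was 0.28 on thinned counts. With and without Ermap reads Car1 was at 208.4 and 385.1 CPM in P2+ MEPs, and at 163.8 and 222.4 CPM without the top Car1 cell of each. The Klf1 levels of the 6 CMPs were between 75.8 and 343.7 CPM. Klf1 itself had pooled levels of 87.4 CPM in P2- and 4.59 CPM in P2+ CMPs. Whether the erythroid genes have a part in the Car1 difference was not tested.

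**Figure D2:**
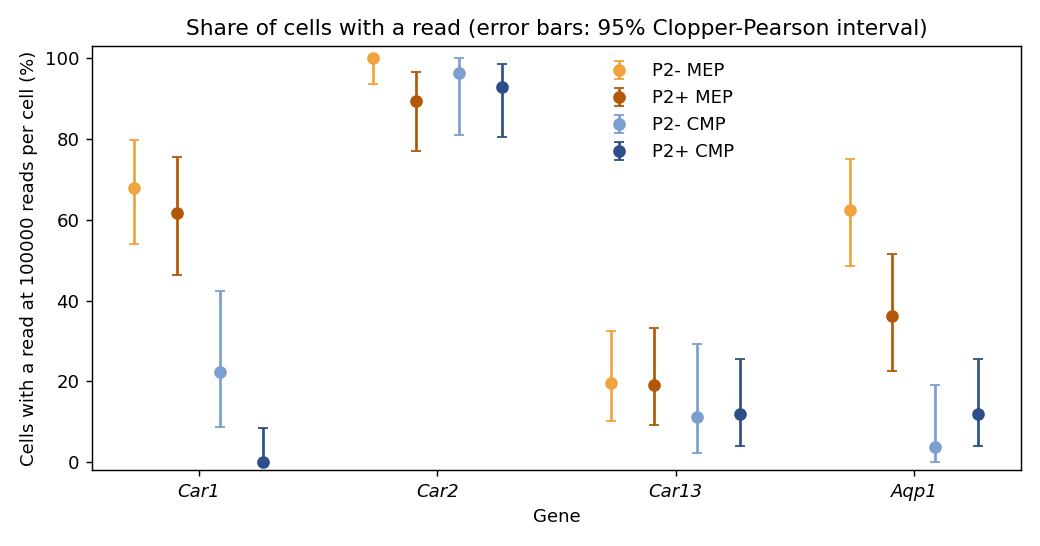
Percent of cells with at least 1 read of each gene after thinning to 100000 reads per cell (vertical axis), by gene (horizontal axis) and population (colour), with 95% Clopper-Pearson intervals. Car1 is at 67.9% of P2- MEPs and 0 of 42 P2+ CMPs, Car2 stays above 89%, and Aqp1 is above 20% only in the MEPs.

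Car2 was found in nearly every cell and was lower in P2+ than in P2- cells of both compartments. The gene (ENSMUSG00000027562.12) lies on the plus strand of the same chromosome at chr3:14886273-14900770. In P2- MEPs the lowest cell had 4.34 CPM, the median 561 and the highest 1202, so no cell was without it. In P2+ MEPs the lowest cell had 0 CPM, the median 314.8 and the highest 1095. The ranges overlapped over most of their width, and 2 of 56 P2- cells lay above the highest P2+ cell. For Car2 the P2+ cell was the higher in 28.2% of these pairs of MEPs.

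The pooled level of Car2 was 527 CPM (519 to 535) in P2- MEPs, against 311.3 CPM (305.2 to 317.55) in P2+ MEPs. Their log2 ratio was -0.76 (-0.80 to -0.72). This did not reach a 2-fold difference, which 2.68% of the genes did in the lower direction. Reads were found in 56 of 56 P2- MEPs (93.6 to 100%) and in 42 of 47 P2+ MEPs (89.4%, 76.9 to 96.5%) after thinning. Car2 and Car1 therefore went in opposite directions in MEPs.

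In CMPs the lowest cell had 0 CPM of Car2 in both populations, the medians were 242.2 CPM in P2- and 189 in P2+ cells, and the highest cells had 1465 and 764 CPM. The pooled P2- level was 324.5 CPM (316.3 to 332.8) and the P2+ level 250.03 CPM (244.9 to 255.2). Their log2 ratio was -0.38 (-0.42 to -0.33). After thinning 26 of 27 P2- CMPs (96.3%) and 39 of 42 P2+ CMPs (92.9%) had a read. The cell at 1465 CPM was the P2- CMP with the conflicting label, and without it the ratio was -0.18. This cell had no reads of Car1, Car13, Aqp1 or Cd34 and 236.8 CPM of Klf1. P2+ CMPs with no Car1 read in any cell thus retained Car2, with a log2 ratio of -0.32 for P2+ CMPs over P2+ MEPs.

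Car13 was low throughout and nearly level across the populations. The gene (ENSMUSG00000027555.8) lies on the plus strand at chr3:14641727-14663002. Its median over cells was 0 CPM in all 4 populations, and the highest cells had 76.6 and 105.02 CPM in P2- and P2+ MEPs and 77.2 and 64.3 CPM in P2- and P2+ CMPs. Reads were found in 13 P2- and 12 P2+ MEPs and in 3 P2- and 6 P2+ CMPs. The 4 populations overlapped from 0 upwards.

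In MEPs pooled Car13 was 6.40 CPM (P2-, 5.54 to 7.37) and 6.30 CPM (P2+, 5.46 to 7.24). In CMPs it was 5.89 CPM (P2-, 4.83 to 7.11) and 5.80 CPM (P2+, 5.05 to 6.64). MEPs gave a log2 ratio of -0.02 (-0.32 to 0.27) and CMPs one of -0.02 (-0.36 to 0.33), so a difference beyond these intervals of counting error was not seen. With reads in 34 of 172 cells (19.8%), Car13 was the only one of the 4 genes below the filter on low values, which asked for a read in 25% of cells. Leaving out 1 cell moved the ratio between -0.35 and 0.40 in MEPs and between -0.71 and 0.73 in CMPs, so its direction was not fixed by these data.

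Aqp1 had the signs opposite to those of Car1: it was lower in P2+ than in P2- MEPs and higher in P2+ than in P2- CMPs, where it was close to 0. The gene (ENSMUSG00000004655.5) lies at chr6:55336432-55348555 on the plus strand. In P2- MEPs the lowest cell had 0 CPM, the median 28.3 and the highest 309.1. In P2+ MEPs the lowest and the median cell had 0 CPM and the highest 162. The populations overlapped, and 2 P2- MEPs lay above every P2+ MEP.

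P2- MEPs had a pooled Aqp1 level of 51.7 CPM (49.2 to 54.3) and P2+ MEPs one of 24.5 CPM (22.8 to 26.3), which makes a log2 ratio of -1.08 (-1.21 to -0.95). A read was found in 62.5% of P2- MEPs (48.5 to 75.1%) and in 36.2% of P2+ MEPs (22.7 to 51.5%) after thinning. Both the share of cells and the pooled level were thus lower in P2+ MEPs. Leaving out 1 cell gave ratios between -1.45 and -0.89. The lowest came without the top P2+ MEP, which held 25.9% of the reads and was the cell with most Car1 reads.

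In CMPs the median was 0 CPM in both populations and the highest cells had 30.6 CPM in P2- and 176 CPM in P2+ cells. Only 2 of 27 P2- CMPs and 6 of 42 P2+ CMPs had an Aqp1 read before thinning, and 4 P2+ cells lay above the highest P2- cell. Of all pairs of a P2+ with a P2- CMP, the P2+ cell had more Aqp1 in 53.6%, with ties split evenly. In pairs of MEPs this share was 31.0%. For Car1 and Car2 the shares in pairs of CMPs were 38.9% and 39.6%. The 22 reads of P2- CMPs made a pooled level of 1.1999 CPM (0.752 to 1.82). P2+ CMPs had 6.66 CPM (5.84 to 7.55), and the log2 ratio was 2.47 (1.84 to 3.17). In CMPs 3.43% of the genes were at least 2-fold higher in P2+ cells. A single P2+ CMP held 52.5% of the reads there, and a single P2- CMP held 59.1%. Leaving out 1 cell gave ratios from 1.43, without that P2+ CMP, to 3.73, without that P2- CMP. After thinning the shares were 1 of 27 P2- CMPs (3.70%) and 5 of 42 P2+ CMPs (11.9%), whose intervals overlapped.

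A RefSeq promoter window was matched for 1 of the 4 genes, Aqp1, and it is printed as the one upstream sequence of a gene whose signs were the reverse of those of Car1. Car1, Car2 and Car13 were not matched. The window (GRCm38.p6, plus strand, chr6:55336049-55336348) runs from 250 bases before to 50 bases after the RefSeq start, which lies before the gene start given above. Capitals mark CACCC, the core of the sites of KLF factors, on either strand, and TGTGGT, the core of RUNX sites:
Aqp1: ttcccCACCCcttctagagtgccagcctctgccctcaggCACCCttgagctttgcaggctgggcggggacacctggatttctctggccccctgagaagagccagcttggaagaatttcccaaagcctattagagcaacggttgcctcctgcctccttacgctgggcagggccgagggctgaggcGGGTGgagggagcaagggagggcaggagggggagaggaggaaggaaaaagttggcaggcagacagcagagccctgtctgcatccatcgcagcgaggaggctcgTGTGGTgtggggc

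The window held 3 matches to CACCC, a pentamer found in 57.5% of 32851 promoter windows of this length. It held 1 match to TGTGGT, found in 16.8% of the windows, after the RefSeq start. No match was found to the core of GATA sites in its 4 spellings, which are AGATAA and AGATAG and the same letters with T first, and 29.8% of the windows had at least 1. None of these letters overlapped one another, both strands were searched, and a match describes the letters only.

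Set against each other by pooled level, the 4 genes gave 3 patterns. Car1 was higher in P2+ MEPs and lower in P2+ CMPs, Aqp1 was the reverse, and Car2 was lower in both, whereas Car13 stayed within its counting error in both. None of the other 3 genes followed Car1. Of the 8739 genes past the filter, 26.2% had the signs of Car1 at any size. At 2-fold in both compartments 35 genes (0.401%) had them, Car1 being 1 of these by choice. The signs of Aqp1 at that size were shared by 19 genes (0.217%), Aqp1 included. Medians over the 8739 genes were 0.01 in MEPs and -0.03 in CMPs on the log2 scale.

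**Figure D3:**
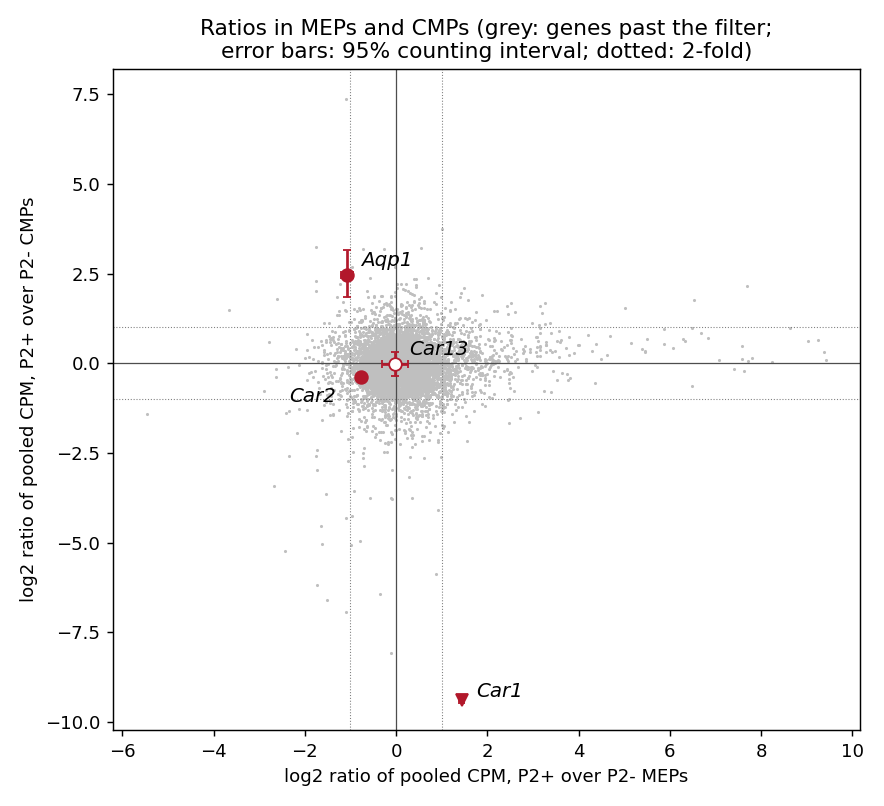
log2 ratio of pooled CPM, P2+ over P2-, in MEPs (horizontal axis) against CMPs (vertical axis) for the 8739 genes past the filter (grey) and the 4 genes (red, with 95% counting intervals). Car1 (triangle, a bound) lies at 1.44 and -9.40, Aqp1 at -1.08 and 2.47, Car2 is below 0 on both axes, and Car13 (open, outside the filter) is near 0 on both.

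Among the 35 genes with the signs of Car1, the others had CMP ratios of -2.16 or above. The lowest of these was Tmem63b, an osmosensitive cation channel gene, with log2 ratios of 1.56 in MEPs and -2.16 in CMPs. By distance between the pairs of ratios, the nearest gene to Car1 was Trib2 at 2.04 log2 units, with 410 reads in P2- CMPs, 0 in P2+ CMPs and a MEP ratio of -0.12. Next came Kel, Slc38a5, Gm15915 and Ermap, at distances of 3.45 to 4.06. Of these 5 genes, Gm15915 alone was also higher in P2+ MEPs, from 313.9 to 580.3 CPM, with a log2 ratio of 0.89 in MEPs and -5.88 in CMPs. Ermap and Kel, which encode red cell blood group proteins, had no read in P2+ CMPs and were lower in P2+ MEPs, with ratios of -1.51 and -0.36. Since Car1 and 4 of these 5 genes had no read in P2+ CMPs, their CMP ratios are bounds, and the distances between them depend on the number of P2- reads. The 3 genes nearest to Car2 (Bsdc1, Gfm1 and Ankfy1) lay within 0.056 log2 units. The nearest genes to Car13 were Heatr6, Prr13 and Uhrf1bp1l, within 0.012. Those nearest to Aqp1 were Uvssa, Gtf2ird2 and Plppr3, at 0.243 to 0.528.

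Cells with reads of several of the 4 genes were found mostly among MEPs. After thinning, 24 of 56 P2- MEPs had reads of 3 of them and 4 of all 4. In P2+ MEPs these numbers were 13 and 3 of 47, in P2- CMPs 1 and 1 of 27, and no P2+ CMP had reads of more than 2. In CMPs 1 gene was the rule, with 21 of 27 P2- and 29 of 42 P2+ cells having reads of just 1 of the 4. Car1 was accompanied by Car2 in 38 of 38 P2- MEPs, 28 of 29 P2+ MEPs and 5 of 6 P2- CMPs with Car1. The product of the shares of both genes gives 38, 25.9 and 5.78 such cells. Because Car2 had reads in nearly every cell, these counts show no link between the genes. Across P2+ MEPs the Spearman rho of Car1 with Car2 was 0.34 over 47 cells, against -0.10 over 56 P2- MEPs. Car1 and Aqp1 had rho of 0.04 and -0.15 in these populations, and Car2 and Aqp1 had 0.28 and 0.20. All these rho are on counts thinned to 100000 reads per cell, and the points are cells of 1 pool.

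Within P2+ MEPs 8737 genes were ranked by their rho with Car1 over 47 cells. The highest were Med25 (rho 0.56), Znrd1 (0.56), Rpsa-ps1 (0.52), Cmss1 (0.49) and Rngtt (0.49), of which the first belongs to the Mediator complex. As the top of so many genes over few cells, their rho are high by the ranking itself. Car1 reads were found in 15 of 24 P2+ MEPs with Gp9 reads and 14 of 23 without, and pooled Car1 was 381.8 CPM with and 194 CPM without Gp9. The single top Car1 cell was among those with Gp9 reads, and without it their level was 233.03 CPM. Those without Gp9 were at 139.04 CPM without their own top cell. Aqp1 was found in 11 of the 24 with Gp9 and 6 of the 23 without. For Car2 these numbers were 22 and 20, and for Car13, the other way, 1 and 8. In P2- MEPs Car1 was found in 7 of 12 cells with reads of Fli1, a transcription factor gene of megakaryocytes, and 31 of 44 without, while pooled Car1 was 139.9 CPM with and 102.99 CPM without Fli1. A single cell held 63.5% of the Car1 reads of the 12. Without the top cell of each side the order turned, to 55.9 CPM with and 89.3 CPM without Fli1. In P2+ MEPs pooled Car1 was 214.09 CPM in the 32 cells with Fli1 reads and 454.4 CPM in the 15 without. Leaving out the top Car1 cell of each side gave 181.41 CPM with and 217.95 CPM without Fli1. Split by Fli1, P2+ MEPs thus had the order opposite to that by Gp9. Over the 27 P2- CMPs the genes nearest to Car1, out of 8733 ranked, were Slc14a1, Steap3, Tbc1d2b, Samd14 and Adat1 (rho 0.68 to 0.69). Only 6 of these cells had a Car1 read. These genes too were picked by rank, and a shared function was not tested. Slc14a1 encodes the urea transporter of the Kidd blood group, and Steap3 a ferrireductase of erythroid iron uptake. Car2 also had more reads in the P2- CMPs with Klf1, 426 against 228.4 CPM, although it was present in 13 of 14 and 13 of 13 cells.

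The carbonic anhydrase genes lie side by side on chromosome 3 in the order Car13, Car1, Car3 and Car2. Car3, the muscle and fat form, had 18 reads in P2+ MEPs and none elsewhere, although it lies between Car1 and Car2. The pseudogene Gm5843, between Car13 and Car1 (chr3:14722416-14729626), had 0.163 CPM in P2- MEPs, 1.30 CPM in P2+ MEPs and no read in CMPs. It shares an identical stretch of 131 bases with Car1, and 7.91% of the 70-base windows of the Car1 transcript, the length of the longest trimmed read, occur in it. Reads confined to these windows cannot be told apart, so Car1 and Gm5843 counts are uncertain to that extent. The longest stretch shared by Car1, Car2 and Car13 with one another was 30 bases, between Car13 and Car2, and the exons of the 4 genes shared 0 bases with other genes. Of the flanking genes, E2f5 had 22.8 and 20.6 CPM in P2- and P2+ MEPs and 22.7 and 33.5 CPM in P2- and P2+ CMPs, and Lrrcc1 had 22.3, 40.9, 56.8 and 64.0 CPM in this order. Neither had the order of Car1. A further flanking gene, 1810022K09Rik, had 168 and 162 CPM in P2- and P2+ MEPs and 162 and 111 CPM in P2- and P2+ CMPs, and so was lower in P2+ CMPs as Car1 was, though not higher in P2+ MEPs.

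**Figure D4:**
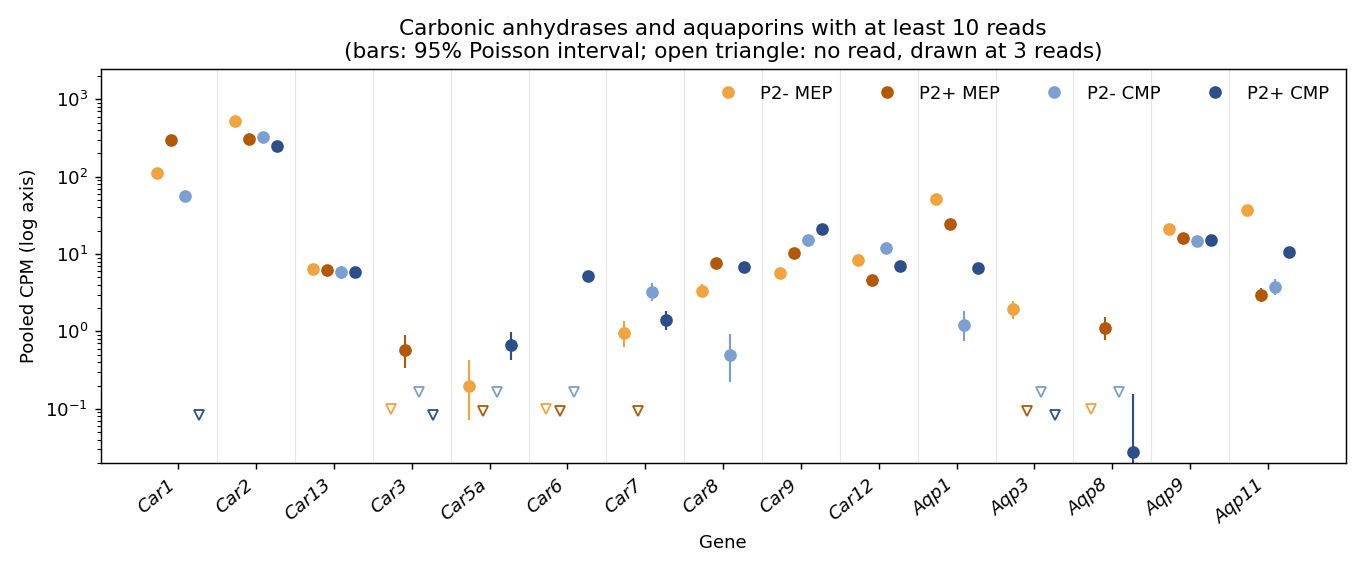
Pooled CPM (logarithmic vertical axis) of the carbonic anhydrase and aquaporin genes with at least 10 reads in all (horizontal axis) in the 4 populations (colour), with 95% Poisson intervals and open triangles at the level of 3 reads where a population had none. Car2 and Car1 are the highest in MEPs, and most of the other genes lie below 30 CPM.

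Of 16 carbonic anhydrase genes listed, 10 had at least 10 reads over the 4 populations. A list member was counted in a compartment from 10 reads in its 2 populations. Counts past 2-fold in this and the following lists stand beside 20.4% higher and 12.5% lower among the 15769 genes with as many reads in MEPs, and 17.4% higher and 14.7% lower among 16107 genes in CMPs. Among the 8739 genes past the filter on low values, which not every list member passed, these shares were 7.52% and 2.68% in MEPs and 3.43% and 4.49% in CMPs. With Car1, Car2 and Car13 included, 3 of 8 genes measured in MEPs were at least 2-fold higher in P2+ cells, 1 was lower and 4 lay between, with a median log2 ratio of 0.43. In CMPs 3 of 9 were higher, 2 lower and 4 between, with a median of -0.02. Car8, a catalytically inactive member of the family, was higher in both compartments, from 3.37 to 7.63 CPM in MEPs and from 0.491 to 6.71 CPM in CMPs. A single P2+ CMP held 74.6% of the reads there, and without it the P2+ level was 1.74 CPM. In MEPs the log2 ratio of 1.18 was 0.64 without the top P2+ cell. Car9, the membrane form known for its induction by hypoxia, had 5.65 and 10.4 CPM in P2- and P2+ MEPs and 15.3 and 20.8 CPM in P2- and P2+ CMPs, with log2 ratios of 0.88 in MEPs and 0.45 in CMPs. A single P2+ MEP held 59.3% of the Car9 reads there, and without it the MEP ratio was -0.36, so its direction rests on that cell. In CMPs the ratio was 1.35 without the top P2- cell and 0.17 without the top P2+ cell. Car12, a further membrane form, had ratios of -0.88 in MEPs and -0.77 in CMPs. The MEP ratio was -0.51 without the top P2- cell. In CMPs 1 of the 3 P2- cells with a read held 82.2% of the reads, and without it the ratio turned to 1.64. Car6, the secreted form, had 189 reads in 5 P2+ CMPs and none in the other 3 populations. Car7 reads came from 1 cell in each of 3 populations, and Car5a had 6 reads in P2- MEPs and 24 in P2+ CMPs. None of these genes had the signs of Car1.

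Of 11 aquaporin genes 5 had at least 10 reads. Aqp11, an aquaporin of intracellular membranes, had the signs of Aqp1, with 37.3 and 2.95 CPM in P2- and P2+ MEPs and 3.76 and 10.51 CPM in P2- and P2+ CMPs. Its log2 ratios were -3.66 in MEPs and 1.48 in CMPs, and in CMPs its reads came from 3 P2- and 9 P2+ cells. Without the top P2- CMP the latter ratio was 2.64, and without the top P2+ CMP it was 1.19. Aqp9, which also passes glycerol and urea, had 21.4, 16.0, 14.9 and 15.3 CPM in the same order of populations. Aqp3 was found only in P2- MEPs (59 reads), and Aqp8 had 35 reads in P2+ MEPs and 1 in P2+ CMPs. In MEPs 3 of the 5 genes, Aqp1 included, were at least 2-fold lower in P2+ cells and 1 was higher, with a median of -1.08. In CMPs 2 of 3 were at least 2-fold higher and 0 lower, with a median of 1.48.

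Genes that move bicarbonate, ions and small solutes across the red cell membrane were in MEPs at least 2-fold higher in P2+ cells for 1 of 17 genes, lower for 5 and between for 11, with a median log2 ratio of -0.35. In CMPs 0 of 16 were higher, 4 lower and 12 between, with a median of -0.06. Slc4a1, the anion exchanger that works with carbonic anhydrase in the red cell, had 26 reads in P2- MEPs, 7 in P2+ MEPs and none in CMPs. A single P2- MEP held 73.1% of its reads there, and the log2 ratio of -1.94 was -0.08 without it. Rhag, a membrane channel of the Rh complex, had 132 CPM in P2- and 21.3 CPM in P2+ MEPs. Kcnn4, the calcium-activated potassium channel, had log2 ratios of -0.77 in MEPs and -0.64 in CMPs. Slc14a1 had 162 CPM in P2- and 175 CPM in P2+ MEPs. None of the transport genes was higher in P2+ MEPs and at least 2-fold lower in P2+ CMPs. Below 2-fold, Slc4a2 had the signs of Car1, with log2 ratios of 0.53 in MEPs and -0.38 in CMPs. Without the top P2+ MEP the former was 0.07, and without the top P2- CMP the latter was 0.16.

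The erythroid marker list moved against Car1 in MEPs, where 8 of 13 genes were at least 2-fold lower in P2+ cells, 1 was higher and the median log2 ratio was -1.20. Klf1 had a ratio of -0.97 and Gata1 of -0.16. Alas2 (1.96, from 33 and 132 reads) and Hbb-bs (0.76) went the other way. Hbb-bt was nearly level in MEPs (0.04) and lower in P2+ CMPs (-0.95). All 10 megakaryocytic genes were at least 2-fold higher in P2+ MEPs, with a median of 4.01. The granulocyte/monocyte list had 4 of 5 genes at least 2-fold higher in P2+ MEPs and the stem and multipotent list 4 of 4, with medians of 2.10 and 3.04. In CMPs 3 of 10 megakaryocytic genes were at least 2-fold higher, 1 was lower and the median was 0.29. The granulocyte/monocyte list had 2 of 7 higher and 1 lower there, with a median of 0.44, and the stem and multipotent list 1 of 7 higher and none lower, with a median of 0.25. In CMPs 6 of 12 erythroid genes were at least 2-fold lower, 1 was higher and the median was -1.02. Car1 thus had the sign of the erythroid list in CMPs and the opposite sign in MEPs, whereas Aqp1 had its sign in MEPs and not in CMPs. The mast and basophil list had the signs of Car1 in both compartments for the 2 genes measured. Cpa3, a mast cell protease gene, had log2 ratios of 3.04 in MEPs and -1.09 in CMPs. Hdc, the gene of histidine decarboxylase, had ratios of 1.25 and -1.80. In MEPs these rested on 1 P2- and 2 P2+ cells for Cpa3 and on 2 P2- and 4 P2+ cells for Hdc, and without the top P2+ cell they were 0.99 and 0.50. In CMPs without the top P2- cell they were -0.60 and -1.09. Aqp1 is also an endothelial gene. Of the endothelial list 3 of 5 genes were at least 2-fold higher in P2+ MEPs, and in CMPs 1 of 7 was higher and 6 lay between, with a median of 0.41. The 3 were Kdr (0 and 43 reads in P2- and P2+ MEPs), Tie1 (1 and 174) and Esam (1 and 19). Egfl7 (2640 and 2679 reads) and Plvap had MEP ratios of -0.02 and 0.07. The summed level of this list per cell had medians of 88.7 CPM in P2- and 96.9 CPM in P2+ MEPs. In CMPs these medians were 158 CPM in P2- and 419 CPM in P2+ cells. In CMPs most of its reads came from Egfl7 (3645 and 8679 reads in P2- and P2+ cells), Esam (1365 and 4689), Tie1 (1290 and 2302) and Emcn (470 and 2314, a log2 ratio of 1.31), and Cdh5 and Kdr were found in at most 2 cells of any population. The part of these marker genes in the ratios of the 4 genes was not tested.

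**Figure D5:**
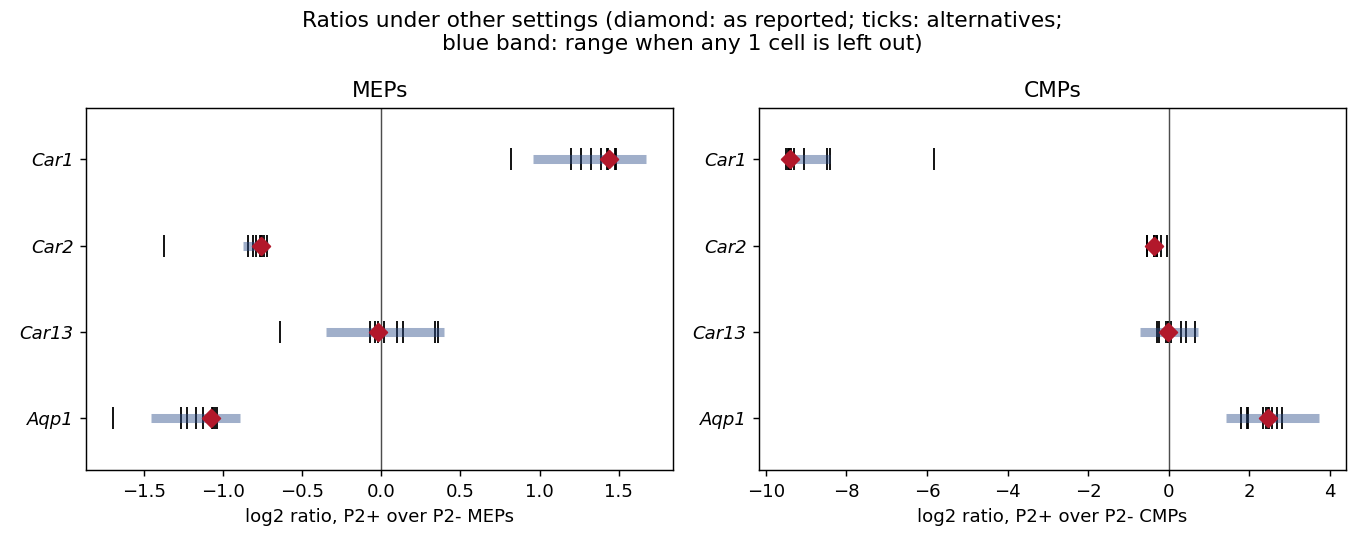
log2 ratio of P2+ over P2- (horizontal axis) of the 4 genes (vertical axis) in MEPs and CMPs as reported (diamond), under each alternative (ticks) and over the removal of any 1 cell (blue band). Car1 and Aqp1 stay on their side of 0 in both panels, and Car13 crosses 0 in both.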

How the data were processed

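Single-cell RNA-seq of 175 cells in 4 sorted populations was analysed, 1 sample per population. The deposited files of the authors hold raw counts of every gene in each cell, the percent of unmapped reads and a gene annotation. Before this the authors trimmed reads with Trimmomatic 0.36, aligned them with STAR 2.4.2a to GRCm38 and counted exon reads of GENCODE genes without strand with HTSeq 0.6.1p1, per the labels and the methods of the study. Deposited counts are not normalized. Of uniquely mapped reads 25.6% could belong to more than 1 gene and 7.40% to none, and both stayed out of totals.

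Cells under 250000 reads, over 25% unmapped or over 15% ERCC spike-in reads were left out (3 cells). A population without a read entered ratios with 3 reads, as a bound. Intervals were exact Poisson (levels), exact conditional binomial (ratios) and Clopper-Pearson (shares). The filter on low values was a mean count of at least 1 and a read in at least 25% of cells. No p-value was computed. The members, lists and the rule for named genes (the members, the nearest genes by ratios and by rho, every carbonic anhydrase and aquaporin with at least 10 reads, a few others of each list) were chosen with earlier results of these data known; Tmem63b, Gm5843 and single cells were named after their values were seen. Positions and exon lengths came from GENCODE on GRCm38, with 4 of 4 gene identifiers matched. Ratios were also checked with DESeq2 1.42.0 size factors, edgeR 4.0.16 TMM factors, ERCC scaling and other settings, and the script was tested on simulated data. Python 3.11.15 and R 4.3.3 were used. Plates are not named in the labels, so plate and population cannot be told apart.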

Additional observations from a re-analysis of the deposited data

Results flagged for a closer look

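Car1 had log2 ratios of P2+ over P2- of opposite sign in the 2 compartments, 1.44 in MEPs and -9.40 (a bound) in CMPs. Aqp1 also had opposite signs, -1.08 in MEPs and 2.47 in CMPs. With 1 sample per population the difference between compartments was not tested for either gene, and the Car1 pair is what the genes were chosen on.

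A P2+ MEP left out for 27.9% unmapped reads held 10 Car1, 86 Car2 and 16 Aqp1 reads among 315322 reads on mouse genes, which corresponds to 31.7, 272.7 and 50.7 CPM. The other 2 cells left out had 63 and 765 reads on mouse genes and none of the 4 genes.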

How the results depend on the processing

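The signs of Car1, Car2 and Aqp1 held under every alternative run, and Car13 changed sign under several. Log2 ratios are P2+ over P2-. Equal weight per cell gave Car1 1.26, Car13 0.36 and Aqp1 -1.23 in MEPs and Car2 -0.54 in CMPs; DESeq2 size factors gave Car1 1.32 and Car13 0.34 in MEPs and Car2 -0.55 in CMPs. TMM factors gave Car2 -0.81 in MEPs and -0.29 in CMPs, and a total without mitochondrial genes and Rn18s-rs5 gave Car2 -0.72 in MEPs. Scaling to ERCC reads shifted the median of all genes to -0.60 in MEPs and 0.30 in CMPs, and gave Car1 0.82 and -9.07, Car2 -1.38 and -0.046, Car13 -0.64 in MEPs and Aqp1 -1.70 in MEPs. Such a scaling moves every gene by the same amount, so values relative to the median (1.43 and -9.36 for Car1, -1.09 and 2.50 for Aqp1) are fixed by construction. Without the top cell of each population the ratios were 1.197 and -8.41 for Car1, -0.85 and -0.29 for Car2, 0.43 in CMPs for Car13 and -1.27 in MEPs for Aqp1. Without the cell of conflicting label Car2 was -0.18 in CMPs. Without the wells with Xist and Y reads the CMP ratios were -8.49 for Car1, -0.32 for Car2 and 0.66 for Car13. On log2(CPM + 1) the CMP ratios were -5.82 for Car1 and 1.80 for Aqp1. Every deposited cell gave values within the counting intervals. Leaving out any 1 cell, an alternative added after the data were seen, gave MEP ranges of 0.96 to 1.67 for Car1, -0.88 to -0.72 for Car2, -0.35 to 0.40 for Car13 and -1.45 to -0.89 for Aqp1. The CMP ranges were -9.49 to -8.41 for Car1, -0.49 to -0.18 for Car2, -0.71 to 0.73 for Car13 and 1.43 to 3.73 for Aqp1. Of 48 shares of cells under other thinning 47 stayed within their interval, and Car13 in P2+ MEPs was 8.51% at 50000 reads. The share of genes with the signs of Car1, 0.401% as reported, became 4.31% of 15873 genes without the filter, 2.64% at 1.5-fold, 0 at 4-fold (Car1 itself is below 4-fold in MEPs) and 0.240% with TMM factors. The cause of the remaining changes was not tested. No paired analysis was possible because the cells carry no shared replicate numbers. The CMP values of Aqp1 and Car13 rest on 2 to 6 cells with a read per population.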
